A study of Mus musculus with 28 samples.

Results

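Globins, the haem enzyme gene Alas2 and the miR-486 host gene Ank1 were followed through endothelial and proximal tubular cells of injured mouse kidney. The genes are Ank1, the adult alpha globin genes Hba-a1 and Hba-a2, the adult beta globin genes Hbb-bs and Hbb-bt, and Alas2. They were taken by symbol from the transcript names of the deposited tables, and make up 6 of the 53392 genes named there. All 6 were named in each of the 16 deposited libraries and in the authors' 12 deposited comparison tables, though Ank1 and Alas2 had no read in some libraries.

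Adult haemoglobin is a tetramer of alpha and beta globin chains, each holding a haem group, and its mRNA is made in erythroid precursors and lost as the red cell matures. Alas2 encodes the erythroid form of the first enzyme of haem synthesis, while other tissues use Alas1. Ank1 encodes ankyrin-1, which ties the band 3 anion exchanger to the spectrin skeleton of the red cell. The miR-486 hairpin lies in an Ank1 intron, and miR-486-5p is abundant in red cells and in muscle.

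The mice were male FVB animals, and the series gave kidney cells from 28 samples in 10 groups, 5 for each cell type. Injured mice received a miR-486-5p mimic (2 libraries per cell type), exosomes (3) or scrambled miRNA (3), other injured mice went untreated (3), and sham mice had no injury (3). Endothelial cells had been collected from digested kidneys with microbeads for CD31, an antigen that platelets and leukocytes also carry, and proximal tubules by microdissection. The labels used here give no age, no time after injury and no source of the exosomes. The design text gives 2 mimic samples per cell type, whereas the extraction notes speak of 3 male mice per group. Each library was taken as a separate sample, and where libraries do not come from separate mice the p-values measure only the spread between libraries. Endothelial and tubular libraries can carry the same number, and whether it then stands for 1 mouse is not given in the labels used here. Tubular titles read PTs for sham and untreated mice and tub for the mimic, exosome and scrambled-miRNA groups. Library numbers of sham and untreated mice are also all lower than those of the other groups. These differences cannot be told apart from treatment.

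Depth was 8.27 to 25.3 M reads per library. Mimic libraries were the deepest, at 14.2 and 24.1 M reads in endothelial and 25.3 and 23.7 M reads in tubular cells, against 8.27 to 13.6 M reads in the other groups, so depth and mimic cannot be told apart. Sham and untreated mice were described only through the authors' deposited tables. Summed TPM of 10 endothelial markers was 454 to 1023 in endothelial and 29.7 to 76.8 in tubular libraries. Summed TPM of 10 proximal tubule markers was 297 to 2996 in endothelial and 2244 to 7446 in tubular libraries, so neither preparation was free of the other. TPM is a level scaled to transcript length and to the library, and CPM is a share of the library's reads, not corrected for length.

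The paralogous globin genes are nearly the same over their coding sequence, which bears on every value given for a single globin gene. In GENCODE M21 on GRCm38, the coding sequences of Hba-a1 and Hba-a2 differed at 1 of 426 bases, and those of Hbb-bs and Hbb-bt at 1 of 441. The stretches around the differing base, in capitals, show how little a read from the coding part can tell.
Hba-a1: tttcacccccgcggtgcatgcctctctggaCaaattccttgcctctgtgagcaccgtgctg
Hba-a2: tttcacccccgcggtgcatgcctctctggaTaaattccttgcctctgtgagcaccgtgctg
Hbb-bs: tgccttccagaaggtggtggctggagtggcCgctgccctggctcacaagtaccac
Hbb-bt: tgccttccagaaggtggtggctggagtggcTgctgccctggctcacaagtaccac

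Of the 75-base windows of the coding Hba-a2 transcript, 81.0% also occurred in an Hba-a1 transcript, and of the windows of the Hbb-bt transcript, 56.6% also occurred in an Hbb-bs transcript. The libraries were run on 75-cycle flow cells. The FVB strain is not the strain of the reference genome, and what strain differences do to the split between paralogs was not tested. Sums over each pair were therefore given beside the single genes.

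The alpha genes lie side by side on chromosome 11 (Hba-a1 at chr11:32283511-32284465 and Hba-a2 at chr11:32296489-32297298, plus strand). Hbb-bs (chr7:103826534-103828096) and Hbb-bt (chr7:103812524-103813996) lie on the minus strand of chromosome 7, and Alas2 on the plus strand of the X chromosome (chrX:150547375-150570638). The RefSeq promoter table (GRCm38.p6) held windows for these 5 genes. For 3 of them, bases outside every annotated exon are printed, because the 4 globins and Alas2 were all higher in endothelial than in tubular cells. The windows of Hbb-bt and Alas2 are therefore cut short before the start. Hba-a2 is shown at chr11:32296242-32296488 on the plus strand, Hbb-bt at chr7:103813997-103814173 on the minus strand and Alas2 at chrX:150547167-150547374 on the plus strand. The capitals mark GATAA (read by GATA factors), CACCC (read by Krüppel-like factors), CCAAT and TATAA, on either strand. Sequences run 5′ to 3′ on the strand of the gene.
Hba-a2: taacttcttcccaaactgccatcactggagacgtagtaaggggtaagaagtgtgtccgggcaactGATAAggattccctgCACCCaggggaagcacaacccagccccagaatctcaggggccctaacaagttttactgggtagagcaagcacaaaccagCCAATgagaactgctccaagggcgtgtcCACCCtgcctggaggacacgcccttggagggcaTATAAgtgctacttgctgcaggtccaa
Hbb-bt: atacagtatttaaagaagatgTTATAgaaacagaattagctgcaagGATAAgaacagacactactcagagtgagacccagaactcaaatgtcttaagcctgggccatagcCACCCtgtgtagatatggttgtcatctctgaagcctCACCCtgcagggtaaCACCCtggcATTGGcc
Alas2: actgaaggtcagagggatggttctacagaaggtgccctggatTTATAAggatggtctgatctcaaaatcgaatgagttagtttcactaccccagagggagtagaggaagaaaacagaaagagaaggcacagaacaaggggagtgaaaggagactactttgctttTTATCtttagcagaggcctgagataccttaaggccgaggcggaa

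The alpha promoters were identical over the 247 bases that could be aligned between Hba-a1 and Hba-a2. In the 250 bases before the start, all 4 globin windows held all 4 motifs, with TATAA 27 to 30 bases before it. Alas2 held 3 of the motifs, its TATAA overlapping the reverse complement, and no CCAAT in this window. Among 32851 windows of the same length, 22.6% held GATAA, 52.0% CACCC, 33.9% CCAAT and 22.8% TATAA, and 0.968% held all 4. These matches describe letters and not bound sites.

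Adult globin mRNA was present in every library, and in all 8 endothelial libraries the order of TPM summed over all transcripts of a gene was Hbb-bs, Hba-a2, Hba-a1, Hbb-bt, Alas2 and Ank1. This order turns when only coding transcripts are taken, as given with the transcripts. In tubular libraries Hbb-bs was above Hba-a2 in 7 of 8, Hba-a2 above Hba-a1 in 7 of 8, Hba-a1 above Hbb-bt in 8 of 8, Hbb-bt above Alas2 in 6 of 8 and Alas2 above Ank1 in 6 of 8. In endothelial cells Hbb-bs, the adult beta globin gene given more reads here, averaged 259 ± 105 TPM with mimic (SD, n = 2). It averaged 207 ± 92.5 with exosomes (n = 3) and 212 ± 43.4 with scrambled miRNA (n = 3). In tubular cells its means were 15.3 ± 17.9 TPM with mimic (SD, n = 2), 49.4 ± 8.80 with exosomes (n = 3) and 22.5 ± 12.6 with scrambled miRNA (n = 3). Neighbouring ranks from Hbb-bs to Hba-a1 overlapped in TPM across the libraries of each cell type. The order was therefore read within each library, and it was not tested.

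**Figure D1:**
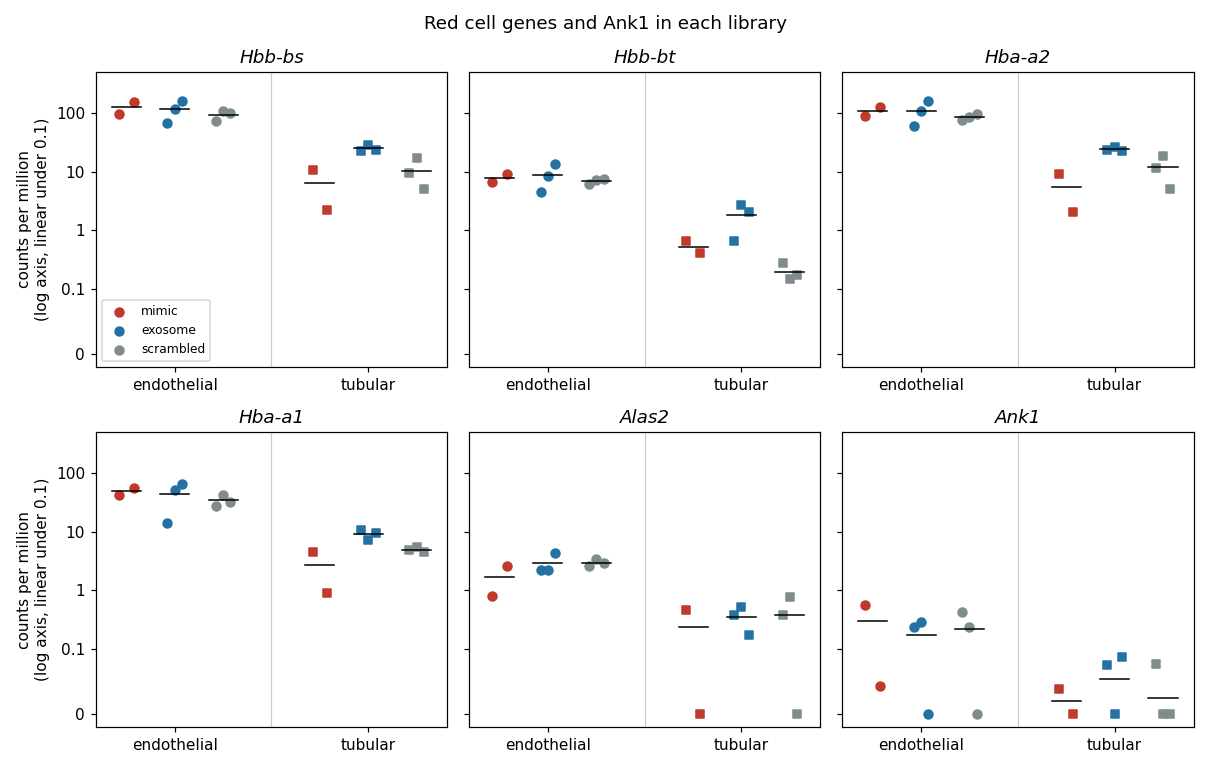
CPM (vertical axis, logarithmic and linear under 0.1) of the 6 genes in each library, with 1 point per library and a line at each group mean. Endothelial points of the 4 globin genes and Alas2 all lie above the tubular points, and Ank1 lies under 1 in every library.

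Read by read, the 4 adult globins together took 232 and 342 CPM in endothelial mimic libraries, 144, 284 and 402 CPM with exosomes and 182, 241 and 237 CPM with scrambled miRNA. The groups overlapped throughout, and the lowest and highest endothelial libraries were both exosome libraries. The lowest, exosome library 1, also had the highest proximal tubule marker sum of the endothelial libraries (2996 TPM), and the part of tubular RNA in its value was not tested. In tubular libraries the sum was 24.7 and 5.56 CPM with mimic, 57.3, 64.6 and 57.7 CPM with exosomes and 25.8, 41.2 and 14.9 CPM with scrambled miRNA. There the exosome libraries stood above all others, and the range over mimic and scrambled-miRNA libraries overlapped.

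All 5 genes that passed the filter on low reads were higher in endothelial than in tubular cells. The filter left Ank1 out, and Alas2 passed it only through endothelial libraries, the cell type where it is high. Hbb-bt showed a log2 fold of 3.58 (SE 0.35, adjusted p = 6.93e-07 by edgeR's quasi-likelihood test), Hbb-bs 3.02 (SE 0.32, adjusted p = 1.49e-06), Hba-a2 2.90 (SE 0.32, adjusted p = 1.88e-06), Hba-a1 2.88 (SE 0.32, adjusted p = 2.73e-06) and Alas2 2.69 (SE 0.59, adjusted p = 9.79e-04). Of all 17143 genes tested, 66.2% were called between the cell types, so 5 of 5 stands against a high background. The median log2 fold was 2.90 over the 5 genes and 0.06 over all genes. Summed pairs gave 2.90 (SE 0.31) for the alpha genes and 3.04 (SE 0.31) for the beta genes. In such bulk samples, fewer cells of a type and less RNA per cell cannot be told apart.

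The levels behind these folds did not overlap between cell types for any of the 5 genes, and 20.2% of all genes tested had every endothelial library above every tubular one in CPM. The 5 genes include Alas2, which had passed the filter only through endothelial libraries. Hba-a2 had 59.4 to 160 CPM (median 91.7, 8 libraries) in endothelial and 2.04 to 26.01 CPM (median 15.03, 8 libraries) in tubular cells. Alas2 had 0.802 to 4.36 CPM (median 2.58) in endothelial and 0 to 0.783 CPM (median 0.377) in tubular cells. Alas2 reads numbered 273 in all endothelial and 38.5 in all tubular libraries, which is 9.56 and 9.88 per 1000 globin reads. Thus the ratio of Alas2 to globin reads was close between the cell types when pooled over libraries. The median over libraries was less close, at 11.7 in endothelial (range 3.46 to 15.7) and 7.25 in tubular cells (range 0 to 19.0).

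Markers of blood cells moved in the same direction between the cell types. All 11 leukocyte markers were called higher in endothelial cells, as were 5 of 6 tested platelet and megakaryocyte markers, while Itga2b of that list was lower. Of all 17143 genes tested, 66.2% were called between the cell types, and 36.3% were called higher in endothelial cells. Summed leukocyte TPM was 93.6 to 280 in endothelial and 7.55 to 45.4 in tubular libraries, and summed platelet TPM 8.31 to 87.0 in endothelial and 4.10 to 13.1 in tubular libraries. All 11 leukocyte and all 10 platelet genes had reads in each cell type. All 7 intercalated-cell markers were also higher in endothelial cells (50.7 to 131 summed TPM in endothelial and 1.24 to 41.0 in tubular libraries). The part of any of these cells in the globin difference was not tested.

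Treatment made no call among these genes in endothelial cells. With mimic against scrambled miRNA, 0 of 5 tested genes passed, with log2 folds of 0.56 (SE 0.51) for Hba-a1, 0.36 (SE 0.36) for Hba-a2, 0.47 (SE 0.36) for Hbb-bs, 0.22 (SE 0.41) for Hbb-bt and -0.74 (SE 0.57) for Alas2. The share called over all 16316 genes was 0.0% by edgeR, 3176 genes had an unadjusted p under 0.05, and DESeq2 called 1355 genes and none of these 5. Exosomes against scrambled miRNA gave 0 of 5 calls and 0.0% of all genes, with 1860 genes at an unadjusted p under 0.05 and 412 called by DESeq2, again none of these 5. The globin folds lay between 0.48 and 0.54, with SE of 0.33 to 0.46, and Alas2 was at 0.17 (SE 0.50). Mimic against exosomes likewise gave 0 of 5 calls and 0.0% of all genes, with 661 genes at an unadjusted p under 0.05 and 5 called by DESeq2. Its globin folds ran from -0.32 to 0.02 (SE 0.36 to 0.51) and Alas2 was at -0.92 (SE 0.57). None of the 5 genes had an unadjusted p under 0.05 in any of these comparisons, which does not show that the groups are alike.

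Among the 3 groups with libraries here, tubular globin sums were highest with exosomes. Hbb-bt, the adult beta globin gene given fewer reads, rose against scrambled miRNA. Hbb-bt had 8.85, 34.2 and 23.5 reads with exosomes and 3.60, 1.49 and 1.46 reads with scrambled miRNA, so the groups did not overlap and the scrambled-miRNA libraries were near the floor of counting. In CPM these were 0.664, 2.64 and 2.07 with exosomes and 0.278, 0.145 and 0.170 with scrambled miRNA. The log2 fold was 3.45 (SE 0.81, adjusted p = 0.0456 by edgeR). It was the only call among the 4 genes tested, where 5.13% of all 14913 genes were called. Hbb-bt passed the filter only through exosome libraries 2 and 3 (2.64 and 2.07 CPM), so it was tested because of the group where it is high. Alas2 and Ank1 were below the filter.

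The other 3 globin genes had unadjusted p under 0.05, as had 3699 of all 14913 genes, and did not pass the adjustment. Hbb-bs had 22.8, 28.8 and 23.6 CPM with exosomes and 9.36, 16.8 and 5.07 CPM with scrambled miRNA, a log2 fold of 1.45 (SE 0.53, adjusted p = 0.132 by edgeR). Hba-a2 had 22.9, 26.01 and 22.5 CPM with exosomes and 11.3, 18.8 and 5.13 CPM with scrambled miRNA, with a fold of 1.20 (SE 0.52, adjusted p = 0.193 by edgeR). Hba-a1 had 10.9, 7.19 and 9.45 CPM with exosomes and 4.88, 5.53 and 4.54 CPM with scrambled miRNA, with a fold of 1.07 (SE 0.45, adjusted p = 0.181 by edgeR). All 4 globin genes were higher in CPM in each exosome library than in each scrambled-miRNA library, which held for 8.76% of all genes tested, beside the 5.13% called. Of the 4, Hbb-bt had passed the filter only through exosome libraries. Summed as pairs, neither passed: the beta pair was at 1.53 (SE 0.51, adjusted p = 0.107 by edgeR) and the alpha pair at 1.17 (SE 0.47, adjusted p = 0.163).

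The Hbb-bt call was a narrow one. It was lost in 7 of the 8 fits that left out 1 tubular library (Hbb-bt was not tested, or had adjusted p over 0.05), and it held without scrambled-miRNA library 1 (adjusted p = 0.0473 by edgeR). DESeq2 called Hbb-bs and Hbb-bt, among 1828 genes that it called in this comparison. Hbb-bt took 2.83%, 8.40% and 8.06% of the beta globin reads with exosomes and 2.88%, 0.858% and 3.25% with scrambled miRNA. Exosome library 1 was therefore within the scrambled-miRNA range on that scale.

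Mimic against scrambled miRNA gave no call among the 4 globin genes in tubular cells, with 0.0201% of all genes called by edgeR (3 of 14913). Hbb-bs had 10.5 and 2.21 CPM with mimic and 9.36, 16.8 and 5.07 CPM with scrambled miRNA. Its log2 fold was -0.61 (SE 0.60), with -0.97 (SE 0.60) for Hba-a2, -0.74 (SE 0.51) for Hba-a1 and 1.64 (SE 0.87) for Hbb-bt, all without an unadjusted p under 0.05. DESeq2 called 773 genes and none of these. Hbb-bt thus had a fold of the opposite sign to the other globins, resting on 16.3 and 9.58 reads with mimic.

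Mimic against exosomes gave no call in tubular cells, with negative folds for all 4 globins. The log2 folds were -2.18 (SE 0.62) for Hba-a2, -2.06 (SE 0.62) for Hbb-bs, -1.82 (SE 0.52) for Hba-a1 and -1.81 (SE 0.79) for Hbb-bt. Without mimic library 1 the first 3 were at -3.46, -3.43 and -3.20, and without mimic library 2 at -1.49, -1.36 and -1.11. Unadjusted p was under 0.05 for all 4, adjusted p was 0.321 for the first 3 and 0.397 for Hbb-bt by edgeR, and 0.0% of all genes were called, with 1848 at an unadjusted p under 0.05. DESeq2 called 238 genes and none of these. Both mimic libraries were under all 3 exosome libraries in CPM for each of the 4 genes, as they were for 18.3% of all genes tested, and mimic library 2 was the lowest of all 8 tubular libraries for Hbb-bs, Hba-a2 and Hba-a1.

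Markers of other cells also varied among the tubular libraries. Summed endothelial marker TPM was 36.5 and 29.7 with mimic, 72.0, 45.4 and 44.9 with exosomes, and 76.8, 34.7 and 58.6 with scrambled miRNA. Summed leukocyte TPM was 12.0 and 7.55 with mimic, 26.5, 15.5 and 8.93 with exosomes, and 23.9, 45.4 and 30.7 with scrambled miRNA. For both lists the highest exosome library lay under the highest scrambled-miRNA library. No marker of either list was called with exosomes against scrambled miRNA, where 5.13% of all genes were called. The fold there was positive for 8 of 10 endothelial markers (median log2 fold 0.34) and for 2 of 9 tested leukocyte markers (median -0.46). The median over all genes was -0.02. Both mimic libraries were under all exosome libraries for the endothelial markers, as they were for the globins. Summed proximal tubule TPM was highest with mimic, at 7446 and 7031, against 5110, 5887 and 4407 with exosomes and 7048, 4620 and 2244 with scrambled miRNA. The part of these cells in the globin values was not tested.

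The effects of treatment were also compared directly between cell types. For exosomes against scrambled miRNA, the endothelial minus the tubular log2 effect was -2.89 (SE 0.82) for Hbb-bt, with an unadjusted p of 0.0033 and an adjusted p of 0.520 by edgeR, and -0.99 to 0.09 for the other 4 tested genes. For mimic against scrambled miRNA it was -1.40 (SE 0.91) for Hbb-bt, -0.14 (SE 1.62) for Alas2 and 1.07 to 1.33 for the other 3 globins. Neither difference was called for any of the 5 genes or for any other of the 17143 (0.0% in both), with 1333 and 2650 genes at an unadjusted p under 0.05. DESeq2 called 34 and 609 genes, and none of these 5.

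**Figure D2:**
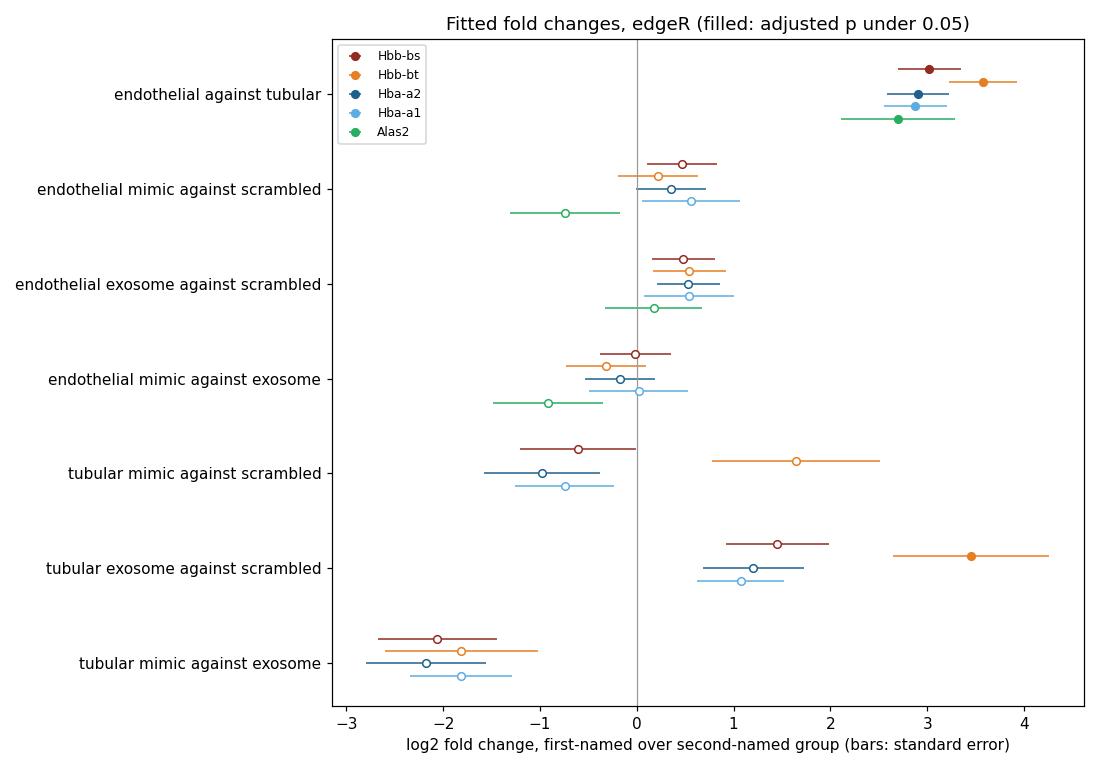
Log2 fold changes from edgeR (horizontal axis) with standard errors as bars, for the 7 comparisons of groups and cell types, first-named over second-named group; filled points have an adjusted p under 0.05. All 5 genes are filled for endothelial against tubular cells, and elsewhere Hbb-bt with exosomes in tubular cells is the only filled point.

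Sham and untreated mice enter through the authors' deposited tables, in which small folds can go with small p, so the folds appear shrunken towards 0 to a degree that differs between tables. These tables share their sham or untreated libraries, so each is given on its own. Sham and untreated tubular samples also differ from the other groups in title and library number. In the authors' deposited table of tubular untreated injury over scrambled miRNA, the 4 globins were all called higher in untreated mice. The folds there were 1.62 (SE 0.73, adjusted p = 0.0147) for Hbb-bs, 2.21 (SE 0.82, adjusted p = 0.00527) for Hbb-bt, 1.11 (SE 0.69, adjusted p = 0.0468) for Hba-a2 and 1.19 (SE 0.77, adjusted p = 0.0443) for Hba-a1. The background in that deposited table was 17.8% of genes called. In the authors' deposited table of tubular untreated injury over mimic, the 4 globins were again called higher in untreated mice, beside 22.9% of all genes. The folds there were 2.15 (SE 0.80, adjusted p = 0.00411) for Hbb-bs, 1.56 (SE 0.98, adjusted p = 0.034) for Hbb-bt, 2.18 (SE 0.74, adjusted p = 0.00216) for Hba-a2 and 2.10 (SE 0.82, adjusted p = 0.00522) for Hba-a1.

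Against exosomes no gene of the 6 was called, and the size of the folds was not compared between tables. In the authors' deposited table of tubular untreated injury over exosomes, the globin folds were 0.22 to 0.38, with adjusted p of 0.465 to 0.694, where 30.9% of all genes were called. In the authors' deposited table of tubular untreated injury over sham, the globin folds were 0.90 to 1.12 with adjusted p of 0.0518 to 0.0853, so none was called, beside 20.2% of all genes. In the deposited tables of tubular exosomes over sham (11.2% of genes called) and tubular mimic over sham (1.03% called), no gene of the 6 was called, with globin folds of 0.20 to 0.29 with exosomes and -0.02 to -0.01 with mimic. In that last table the size of the folds cannot be read. Ank1 had no adjusted p with exosomes over sham and could not be called there.

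In endothelial cells the authors' deposited tables held a single call among the 6 genes. Hbb-bt was higher with exosomes than in sham mice, with an authors' deposited fold of 0.90 (SE 0.44, adjusted p = 0.0488), where 6.73% of all genes were called. Its authors' deposited fold with mimic over sham was 0.66 (SE 0.43, adjusted p = 0.18), in a table with 11.6% called. The remaining authors' deposited tables had no call among the 6 genes: endothelial untreated injury over sham (4.41% of genes called), over scrambled miRNA (0.757%), over exosomes (3.77%) and over mimic (10.2%). In the deposited table of endothelial untreated injury over sham the globin folds were 0.06 to 0.09, and Alas2 and Ank1 were called in none of the 12 deposited tables. Only 5 of the 6 genes had an adjusted p in tubular exosomes over sham, untreated injury over scrambled miRNA and untreated injury over sham. A gene without one could not be called there, as was the case for Ank1 in tubular exosomes over sham.

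**Figure D3:**
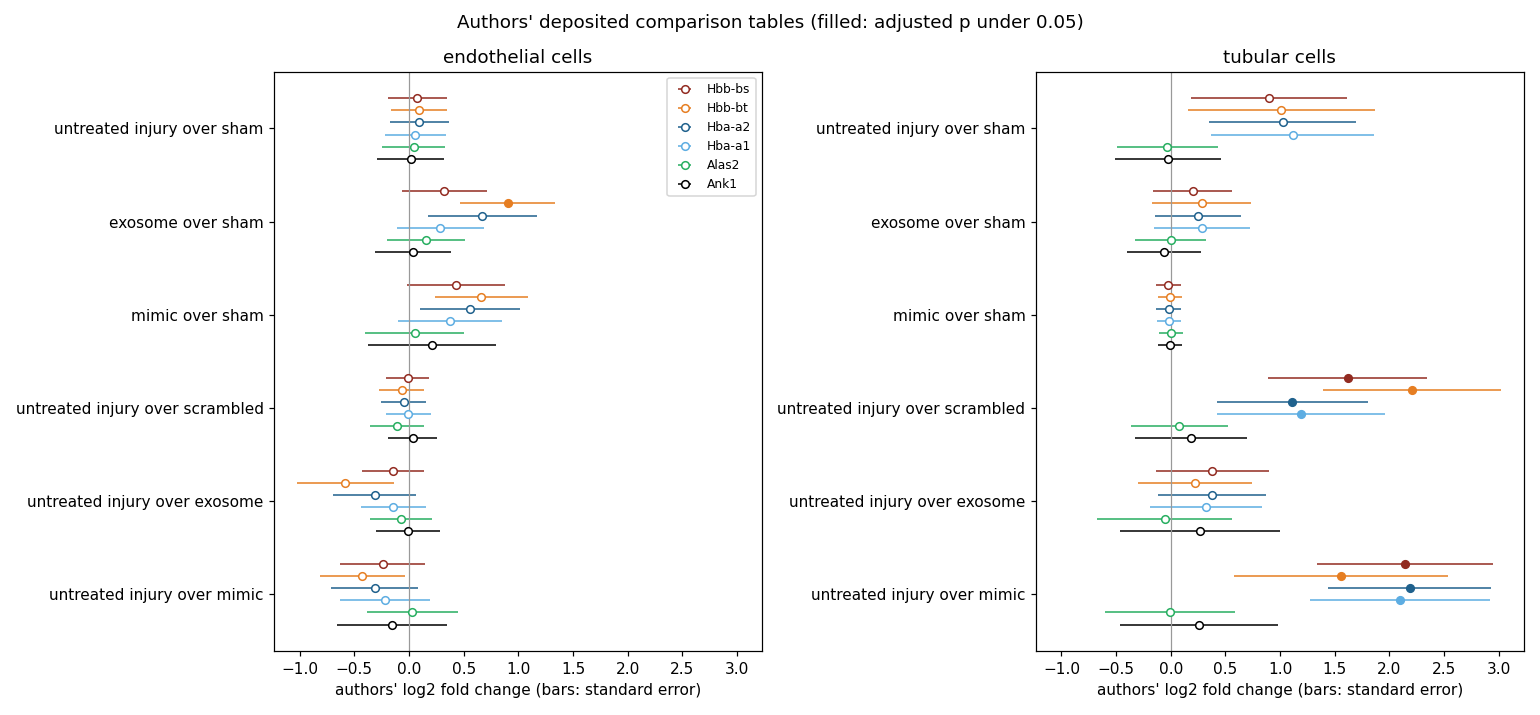
Log2 folds of the 6 genes in the authors' 12 deposited tables (horizontal axis, standard errors as bars), with endothelial cells on the left and tubular cells on the right; filled points have an adjusted p under 0.05. The 4 globins are filled and positive in tubular untreated injury over scrambled miRNA and over mimic, and Alas2 and Ank1 are filled nowhere. Open points include those without an adjusted p.

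Ank1 gave 22.0 reads in the 8 endothelial libraries together and 4 in the 8 tubular libraries. Endothelial libraries had 8 and 1.04 reads with mimic, 3, 4 and 0 with exosomes and 4, 2 and 0 with scrambled miRNA. Tubular libraries had 1 and 0 reads with mimic, 1, 0 and 1 with exosomes and 1, 0 and 0 with scrambled miRNA. A library without a read allows a level of up to 0.126 to 0.350 CPM in the 6 libraries concerned (3 reads, counting error only), and no difference in Ank1 was detectable at this depth. With no filter, the log2 fold was 2.36 (SE 1.20, adjusted p = 0.12 by edgeR) between endothelial and tubular cells, and adjusted p was 0.921 to 1 for the 6 treatment comparisons and 1 for both differences between cell types. Per 1000 globin reads, pooled Ank1 reads were 0.771 in endothelial and 1.03 in tubular cells.

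The Ank1 gene (ENSMUSG00000031543.18) spans chr8:22974844-23150497 on the plus strand in GENCODE M21. The miR-486 hairpin is annotated at chr8:23142555-23142682 on the same strand, and lies in an intron of all 15 Ank1 transcripts that span it, the last intron in 14 of them. Of the 17 annotated transcripts, 4 start within 5000 bases before the hairpin, and the others start further upstream. A short form of ankyrin-1 is known from striated muscle, and the long form from red cells. The 4 short transcripts held 7.71 of the endothelial reads, against 14.3 on the longer ones, and 1 tubular read against 3. Of these 3 tubular reads, 2 were put on Ank1-214, which ends before the hairpin and does not span it. The share of the short transcripts was 35.0% of endothelial Ank1 reads and 73.3% of its TPM, since a read weighs more on a short transcript. Striated muscle genes were low, with summed TPM over 10 genes of 5.40 to 9.48 in endothelial and 0.119 to 0.792 in tubular libraries, and Myh1 and Myl1 had no read in either.

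**Figure D4:**
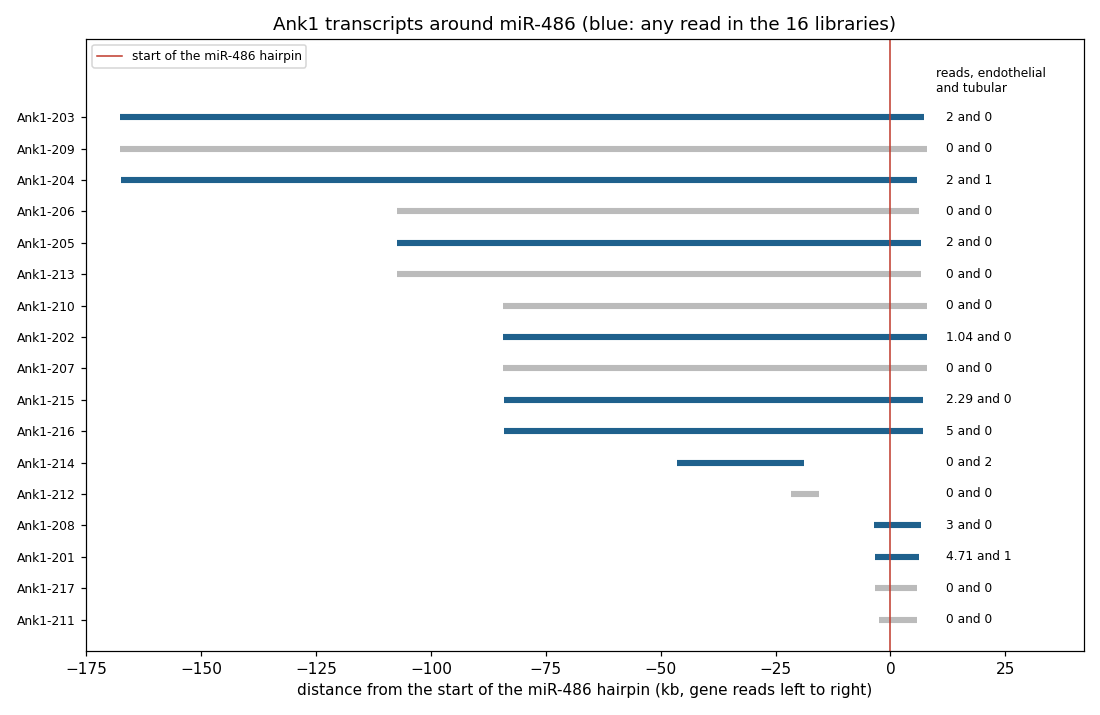
Annotated Ank1 transcripts (1 line each, drawn from first to last base) by distance in kb from the start of the miR-486 hairpin, with reads summed over 8 endothelial and over 8 tubular libraries at the right. Blue lines have a read in some library and grey lines have none, and no transcript has more than 5 endothelial or 2 tubular reads.

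The rows for the miR-486 hairpin and for Mir3107, annotated on the opposite strand at the same place, were at 0 in all 16 libraries. Poly(A) libraries count long polyadenylated RNA, so these rows do not measure the mature miRNA or the mimic that was given. The antisense gene Gm15816 (chr8:23138794-23149585, minus strand) overlaps the end of Ank1, and without a stated strand setting reads there cannot be assigned to either gene with certainty. Gm15816 was given 8.96 endothelial reads, all in 1 library, and 0 tubular reads. Matches of the miR-486-5p seed in the transcripts were not analysed here.

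The base mean in the authors' deposited tables, which was the same in all 6 tables of a cell type, can be set beside the 8 libraries. For the median gene averaging over 50 reads it was 3.14 times the mean reads of those libraries in endothelial and 2.81 times in tubular cells. Hbb-bs had a ratio of 2.53 in endothelial and 4.11 in tubular cells, and the other globins 2.37 to 2.49 in endothelial and 3.70 to 4.15 in tubular cells. The globins thus lay under the median gene in endothelial and above it in tubular cells. They stayed within the 5% to 95% range of those genes, 2.36 to 4.98 in endothelial and 2.35 to 4.60 in tubular cells. For Ank1 the ratio was 6.36 in endothelial and 14.97 in tubular cells, from deposited base means of 17.5 and 7.48, but its denominators are 2.76 and 0.5 reads.

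Reads within each globin pair fell unevenly on the annotated transcripts. In endothelial cells 97.7% of Hba-a1 reads and in tubular cells 100% were put on a 494-base transcript annotated as retained intron, while all Hba-a2 reads were put on its coding transcript. Of the 75-base windows of that Hba-a1 transcript, 82.1% also occurred in an Hba-a2 transcript and 73.6% in the coding Hba-a1 transcript. A 344-base transcript of Hbb-bs, also annotated as retained intron, took 26.1% of Hbb-bs reads in endothelial and 24.96% in tubular cells, but 57.7% and 56.8% of its TPM. Hba-a2 made up 66.3 to 81.1% of alpha reads in endothelial and 53.1 to 78.3% in tubular libraries, and Hbb-bt 5.47 to 7.76% of beta reads in endothelial and 0.858 to 15.5% in tubular libraries. Levels per length of Hba-a1 and Hbb-bs thus rest on short annotated transcripts. On the main coding transcripts alone, TPM summed over the 8 endothelial libraries was 1082 for Hba-a2, 738 for Hbb-bs, 59.9 for Hbb-bt and 8.38 for Hba-a1, which is not the order of the gene totals.

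Other red cell genes were described by lists. No read fell on the embryonic globins Hba-x, Hbb-y, Hbb-bh1, Hbb-bh2 and Hbb-bh0, or on Hbq1a and Hbq1b, in any of the 16 libraries. Some genes known for erythroid precursors were also at or near 0, while others of the same lists were not. Gata1, the master transcription factor of red cell precursors, had 2 endothelial reads and 0 tubular reads, and Gfi1b, its partner in repression, had none. The Rh-associated glycoprotein gene Rhag had 1.85 endothelial reads and no tubular read, and carbonic anhydrase 1 (Car1) 0 endothelial reads and 1 tubular read. By contrast Klf1 had 53 and 254 reads in endothelial and tubular cells, Nfe2 87 and 6, Epor 515 and 60, Tal1 722 and 65, Zfpm1 1467 and 160, and Sptb 1150 and 244. The transferrin receptor gene Tfrc, which many cell types use, had 16119 endothelial and 14554 tubular reads. These genes were named after their values were seen.

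**Figure D5:**
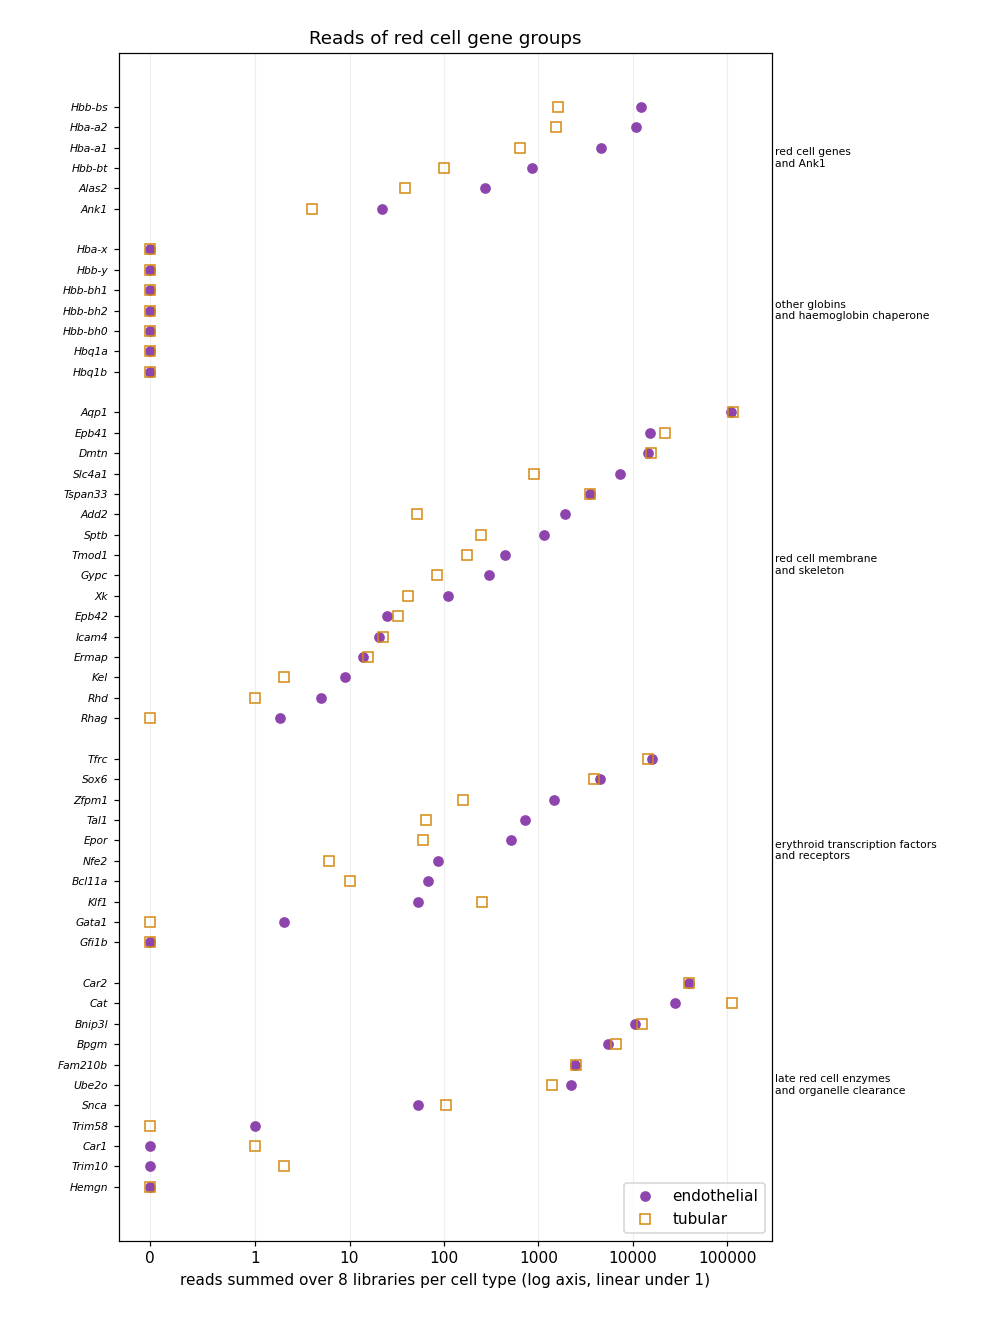
Reads summed over the 8 libraries of each cell type (horizontal axis, logarithmic and linear under 1) for the 6 genes and for genes of 4 lists of other red cell genes, with endothelial sums as filled circles and tubular sums as open squares. The 6 genes run from 22.0 to 12229 reads in endothelial cells, while embryonic globins, Gata1, Gfi1b, Hemgn, Trim10 and Trim58 lie at 2 reads or fewer.

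Haem synthesis genes other than Alas2 went the other way from the globins between cell types. Of 11 tested, 9 were lower in endothelial than in tubular cells and none higher, with a median log2 fold of -0.999, against 0.06 over all genes and 66.2% called. Alad, the second enzyme of the pathway, was at -1.10 (SE 0.09, adjusted p = 1.69e-07 by edgeR). Alas1 had 76.4 TPM in the median endothelial and 200 TPM in the median tubular library, against 0.843 and 0.195 TPM for Alas2. In tubular cells with exosomes, Uros, the fourth enzyme, rose against scrambled miRNA by a log2 fold of 1.00 (SE 0.17, adjusted p = 0.0251 by edgeR). It was the only call in the 5 lists for that comparison, where 5.13% of all genes were called.

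Membrane and skeleton genes were mixed, and the counts of the lists between cell types stand against 66.2% of all genes called. Of 18, 10 passed the filter, and 6 were higher and 1 lower in endothelial cells, with a median log2 fold of 1.19. Add2, the beta adducin of the spectrin junction, was at 5.20 (SE 0.47, adjusted p = 3.28e-07 by edgeR). Slc4a1 (band 3) is shared with intercalated cells, whose markers were also higher in endothelial cells. Of 8 tested transcription factors and receptors 5 were higher and 1 lower in endothelial cells, with a median of 3.17. Zfpm1, which encodes a GATA cofactor, was at 3.16 (SE 0.25, adjusted p = 1.08e-07 by edgeR) and Tal1, expressed in blood and endothelial cells, at 3.46 (SE 0.31, adjusted p = 2.80e-07 by edgeR). Klf1, the erythroid Krüppel-like factor, was the lower one at -2.19 (SE 0.37, adjusted p = 1.12e-04 by edgeR), with 53 endothelial and 254 tubular reads, and is named after its values were seen. Among 7 tested late enzymes and clearance genes, 1 was higher and 3 lower, with the catalase gene Cat at -2.05 (SE 0.20, adjusted p = 7.83e-07 by edgeR). No list gene was called for treatment in endothelial cells, where edgeR called 0.0% of all genes in each treatment comparison. None but Uros was called in tubular cells. There 5.13% of all genes were called for exosomes against scrambled miRNA, 0.0201% for mimic against scrambled miRNA and 0.0% for mimic against exosomes.

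Haem synthesis genes were also counted in the authors' deposited tubular tables. In their deposited table of tubular untreated injury over mimic, 1 of 11 haem synthesis genes was called higher and 5 lower, where 22.9% of all genes were called, with Uros at -1.01 (SE 0.31, adjusted p = 0.00357). In their deposited table of tubular untreated injury over sham, 4 of 11 were called lower and none higher, where 20.2% of all genes were called, with Uros at -1.09 (SE 0.28, adjusted p = 5.31e-04). In their deposited table of tubular untreated injury over exosomes, 1 was called higher and 4 lower, where 30.9% of all genes were called, with Uros at -1.75 (SE 0.28, adjusted p = 4.36e-09). In their deposited table over scrambled miRNA, 1 was called higher and 2 lower, where 17.8% of all genes were called, with Uros at -0.87 (SE 0.28, adjusted p = 0.00605). In the 3 deposited tables over mimic, exosomes and scrambled miRNA, the gene called higher was Slc25a37, the mitochondrial iron importer mitoferrin-1.

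Genes whose log2 CPM ran most like the summed globins over 8 libraries were found by Pearson's r among genes averaging at least 50 reads. In endothelial cells these were Stat5a (r = 0.974), Tbp (0.953), Tbkbp1 (0.944), 1700088E04Rik (0.938) and Zfp420 (0.938), of 12213 genes. In tubular cells they were Pot1a (0.934), Fgfr1op (0.930), Gm47578 (0.927), Mettl6 (0.922) and Gm28439 (0.919), of 10964 genes. No gene was on both lists. For Ank1 the first of the 5 was Rab24 (0.946) in endothelial and Pomgnt1 (0.944) in tubular cells, but these rest on 0 to 8 Ank1 reads per library. The points share depth and treatment, and r is given as a description.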

How the data were processed

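Poly(A) RNA was sequenced from endothelial and proximal tubular cells, per the labels. The authors deposited, for each transcript, an estimated count (not normalized) and a TPM value. The submitters' processing notes name Salmon 0.13.1, DESeq2 and GRCm38, without saying which step each served. The authors' 12 deposited tables give a base mean (a signal over normalized libraries), log2 fold changes, their standard errors (held as a score) and p-values, under DESeq2's column names per the file headers. Of the transcript names, 99.05% matched GENCODE M21.

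Transcripts were summed to 53392 genes and rounded for the tests. With edgeR 4.0.16 in R 4.3.3, libraries of each cell type, and all 16 together, were scaled by TMM, filtered with filterByExpr (minimum count 10, total 15) and tested by quasi-likelihood. P-values were adjusted by Benjamini and Hochberg's method across all genes, and called under 0.05. Filters left 16316 endothelial, 14913 tubular and 17143 joint genes. Intervals cover counting error only, and the steps were tested on simulated data. The direction of the deposited tables was checked by subtracting tables (r = 0.380 to 0.915 over genes) and against the libraries (0.682 to 0.833).

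The genes and lists were chosen with earlier results of these data known. Named besides the 6 genes were list genes called at adjusted p 0.05, up to 6 per comparison by smallest p, and genes most alike by Pearson's r. Some genes of the lists are counted but not reported here by name. Alternatives were DESeq2 1.42.0, no filter, summed globin pairs, a length offset, a replicate block, only the groups compared, and each library left out.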

Additional observations from a re-analysis of the deposited data

How the results depend on the processing

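In endothelial against tubular cells, all 5 tested genes passed under every alternative that kept them apart, and all 3 rows did with the globin pairs summed. For exosomes in tubular cells, where 1 gene was called, DESeq2 called 2 and no filter called 4. None was called (0) with pairs summed, with an offset for effective length, with only the 2 groups compared or with the replicate block, and leaving out 1 library gave 0 to 1. All genes called there numbered 765, against 1828 by DESeq2, 2014 without a filter, 47 with the length offset, 453 with the 2 groups alone and 1 to 1335 with a library left out. Without a filter, 1 gene was called in tubular mimic against scrambled miRNA, 3 in tubular mimic against exosomes, 3 for the mimic difference between cell types and 1 for the exosome difference. Over all genes, dropping the filter gave 2038 calls for mimic against scrambled miRNA, 896 for exosomes against scrambled miRNA and 661 for mimic against exosomes in endothelial cells. The same step gave 1354 and 396 for the tubular mimic comparisons and 1716 and 503 for the mimic and exosome differences. With the 2 groups alone, 1494 genes were called for mimic against scrambled miRNA in endothelial and none in tubular cells, and 284 for tubular mimic against exosomes. With a library left out, mimic against scrambled miRNA gave up to 1321 calls in endothelial and up to 494 in tubular cells, against 0 and 3 with all libraries. The short Ank1 transcripts' share was 73.3% as TPM. The cause of these shifts was not tested.

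Signs turned only in folds that were not called. For mimic against exosomes in endothelial cells, Hba-a1 turned to -0.12 with pairs summed, and Hbb-bs to 0.031 with the length offset. With 1 library left out the folds there ranged from -0.41 to 0.44 for Hba-a1, -0.48 to 0.21 for Hba-a2, -0.37 to 0.31 for Hbb-bs and -0.64 to 0.12 for Hbb-bt. Alas2 with exosomes against scrambled miRNA in endothelial cells turned to -0.64 with the length offset, and ranged from -0.23 to 0.34 with 1 library left out. Hbb-bs with mimic against scrambled miRNA in tubular cells ranged from -1.99 to 0.094. The Alas2 difference between cell types ranged from -1.24 to 4.68 for mimic and from -0.79 to 0.61 for exosomes.

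Pairing by replicate number was not stated in the labels and did not hold for every pair: same-numbered libraries had deviations correlated at -0.110 to 0.391 within a cell type (14 pairs, 4 over 0.1) and -0.122 to 0.275 across cell types (7 pairs, 3 over 0.1, these being the scrambled-miRNA pairs at 0.134, 0.135 and 0.275). For tubular libraries with exosomes, the replicate block gave 0 called genes of 4 against the scrambled group (286 genes in all; 661 for endothelial and 8 for tubular mimic against the scrambled group), 5 of 5 between cell types, and turned Hba-a2, Hbb-bs and Hbb-bt in endothelial mimic against exosomes to 0.13, 0.23 and 0.012, and the Alas2 exosome difference to -0.20. Depth limits Ank1, tubular Alas2 and tubular Hbb-bt, which rest on few reads.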
